A study of Mus musculus with 16 samples.

Results

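The 9 FGF ligand genes followed here were Fgf3, Fgf4, Fgf5, Fgf8, Fgf9, Fgf10, Fgf15, Fgf17 and Fgf18, which code for secreted fibroblast growth factors of the early embryo. They were listed by name with earlier results of these data known, the fall of Fgf3 at 24 h among them, and all 9 were among the 29310 genes that could be tested in the series. The array held 14 probes for them among 60273 probes. A symbol in the scanner files named 2 of the 14, 1 probe each for Fgf3 and Fgf10, and the RefSeq accession of the probe named the other 12. In 13 of the 14 probes, some group had all its arrays well above background, and the brightest such probe stood for its gene in the tests.

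FGFs bind tyrosine kinase receptors on the cell surface together with heparan sulfate and signal mainly through Ras and the MAP kinase cascade, which in turn induces feedback inhibitors of the Sprouty and Dusp families. In embryonic stem cells FGF4 drives the exit from the naive state, Fgf5 marks the primed epiblast, and FGF8 is required when cells leave the primitive streak to form mesoderm. FGF10 is made by cardiac progenitors of the second heart field, and FGF3 is known for the induction of the inner ear.

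The study asked how a hawthorn extract and a fraction of it change gene expression early in cardiac differentiation. CGR8-Myh6-GFP cells, mouse embryonic stem cells with a green fluorescent reporter for the cardiac myosin gene Myh6, differentiated in gelatin-coated plates after the factor LIF had been withdrawn. On day 4 they received the vehicle DMSO, WS1442 at 0.25 mg/ml, a hawthorn extract, or its MeOH eluate at 0.1 mg/ml, the methanol fraction of that extract from a column, which carries oligomeric procyanidins. RNA was taken after 6 h and after 24 h from 2 DMSO, 3 WS1442 and 3 MeOH eluate cultures, which gave 16 samples in 6 groups, each on a 1-colour array. All groups share this single reporter line and the day of treatment. Nothing in the labels says whether replicates came from separate differentiations, so the p-values measure the spread between these samples, which may be technical. Both treatments of a time point were set against the same 2 DMSO cultures, so an unusual vehicle culture moves both comparisons.

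RNA integrity numbers lay between 8.6 and 10, and between 55.1% and 63.0% of the gene spots of an array were well above background. All 8 arrays of a time point lay on 1 slide, so the slide and the time point cannot be told apart, and levels were compared with DMSO only within a time point. Levels are given as normalised log2 signals, on which a difference of 1 is 2-fold, and the signals of different probes are not set against each other. Of the marker lists, all 7 genes of pluripotent cells and all 10 of primitive streak and early mesoderm could be tested, while Myh6 did not pass the background filter, so the reporter's own gene was not tested at this stage.

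Fgf3 went up within 6 h of treatment and down by 24 h. On its brightest probe, which targets the transcript XM_006508483.1, the 2 DMSO cultures of 6 h read 8.93 and 9.24, the 3 WS1442 cultures 9.82, 9.68 and 9.91, and the 3 MeOH eluate cultures 9.97, 10.12 and 9.81. At 24 h the DMSO cultures read 9.79 and 9.75, the WS1442 cultures 8.46, 8.34 and 8.45, and the MeOH eluate cultures 8.54, 8.59 and 8.16. Every treated culture lay above both DMSO cultures at 6 h and below both at 24 h, while the WS1442 and MeOH eluate cultures overlapped at 6 h and at 24 h. At 6 h Fgf3 was upregulated by a log2 (fold change) of 0.72 ± 0.13 (SE) with WS1442 (limma, adjusted p = 0.00585) and of 0.88 ± 0.13 with MeOH eluate (adjusted p = 0.000313). At 24 h it was downregulated, with a log2 (fold change) of -1.35 ± 0.13 for WS1442 (2.55-fold, adjusted p = 1.25e-05) and of -1.33 ± 0.13 for MeOH eluate (2.52-fold, adjusted p = 4.61e-06). The fall at 24 h prompted the choice of these genes, so its values and p-values on every probe are a description. The call at 6 h with WS1442 was lost without DMSO 6 h replicate 1, where the log2 (fold change) was 0.57 (adjusted p = 0.125) and the calls over all genes dropped from 1641 to 231. In these bulk samples, fewer cells that express a gene and less of its RNA per cell cannot be told apart.

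**Figure D1:**
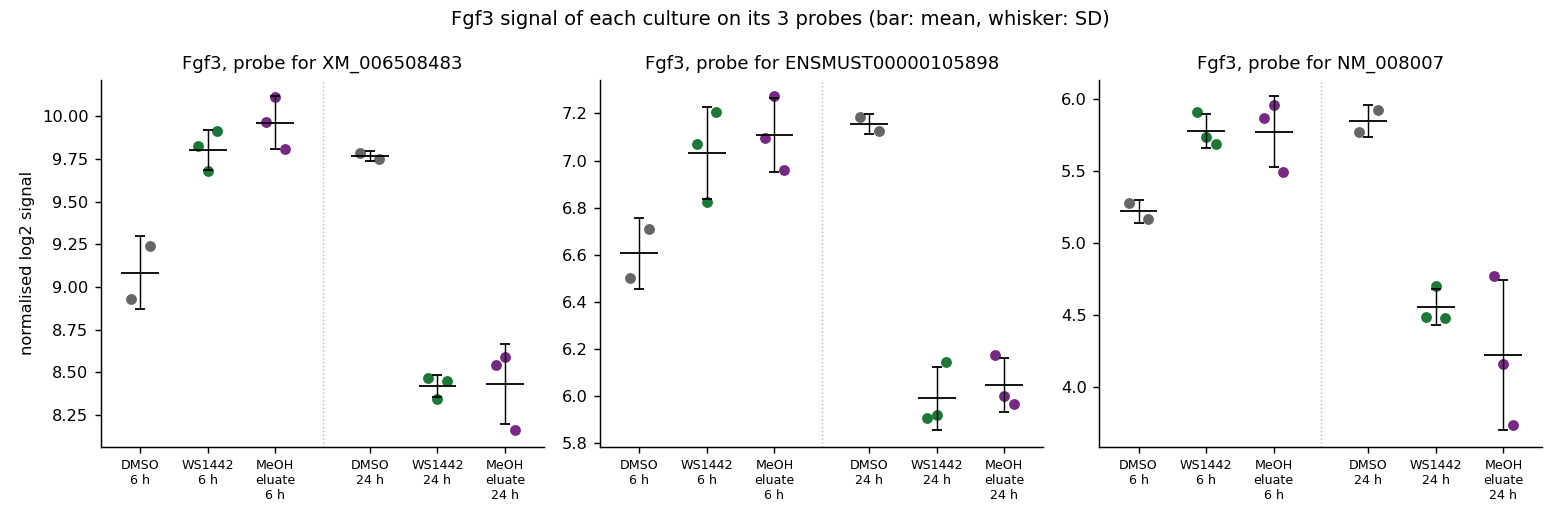
Normalised log2 signal of Fgf3 (vertical axis) in each of the 16 cultures by group (horizontal axis), in 1 panel for each of its 3 probes. Points are cultures, bars are group means and whiskers are SD. On all 3 probes the treated means lay above the DMSO mean at 6 h and below it at 24 h.

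The other Fgf3 probes moved the same way. The probe for ENSMUST00000105898, placed by the array design at chr7:152029825-152029884 of the mouse build mm9, differed from DMSO at 6 h by 0.43 ± 0.13 with WS1442, which missed the threshold (adjusted p = 0.0862), and by 0.50 ± 0.13 with MeOH eluate (adjusted p = 0.0192). At 24 h it fell with both, by 1.16 (adjusted p = 4.48e-05) and by 1.11 (adjusted p = 4.12e-05) on the log2 scale. The dimmest probe, for NM_008007.2, differed at 6 h by 0.56 ± 0.24 with WS1442 (adjusted p = 0.211) and by 0.55 ± 0.24 with MeOH eluate (adjusted p = 0.13). At 24 h that probe changed by -1.29 with WS1442 (adjusted p = 0.00127) and by -1.63 with MeOH eluate (adjusted p = 0.000202), although it was well above background on only 2 of the 3 MeOH eluate arrays of 24 h. The rise at 6 h passed the test on 1 probe with WS1442 and on 2 with MeOH eluate.

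For the promoter sequences, RefSeq entries in the build GRCm38.p6 covered 6 of the 9 genes, and the 250 bases before the annotated start were searched on both strands for 6 motifs, none of which contains another. These were the TATA box with the letters TATAAA, the GC box with GGGCGG, the T-box motif TCACACCT, the ETS motif CCGGAAGT, the LEF/TCF motif CTTTGAT and the nuclear receptor motif AGGTCA. The windows of Fgf3 and of Fgf10 are shown because these genes had the largest called changes of the 9 at 24 h, and that of Fgf4 because it is the neighbour of Fgf3. They are printed 5′ to 3′ on the coding strand, which is the plus strand for all 3. Capitals mark GC boxes in Fgf4 and, as CCGCCC of the other strand, in Fgf10. In Fgf3 they mark a run of C and T of the longest length in that window, 26 bases. Another run of the same length stands nearer to the start.
Fgf3, chr7:144838362-144838611: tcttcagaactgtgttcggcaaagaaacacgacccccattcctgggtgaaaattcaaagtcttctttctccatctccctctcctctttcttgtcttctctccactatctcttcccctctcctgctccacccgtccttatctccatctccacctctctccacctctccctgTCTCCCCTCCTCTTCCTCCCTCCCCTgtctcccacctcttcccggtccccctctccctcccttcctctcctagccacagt
Fgf4, chr7:144861136-144861385: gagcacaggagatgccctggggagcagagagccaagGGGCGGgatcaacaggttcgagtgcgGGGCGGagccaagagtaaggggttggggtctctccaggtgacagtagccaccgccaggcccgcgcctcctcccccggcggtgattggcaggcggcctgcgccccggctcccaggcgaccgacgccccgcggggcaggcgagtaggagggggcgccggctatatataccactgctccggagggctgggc
Fgf10, chr13:118714449-118714698: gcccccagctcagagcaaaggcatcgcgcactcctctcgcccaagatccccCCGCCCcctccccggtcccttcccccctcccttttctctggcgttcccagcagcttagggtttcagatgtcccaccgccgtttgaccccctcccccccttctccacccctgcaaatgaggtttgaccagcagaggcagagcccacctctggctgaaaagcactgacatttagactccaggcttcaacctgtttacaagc

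The Fgf3 window held none of the 6 motifs, and neither did that of Fgf9. The GC box, found in 32.7% of all 32851 promoter windows of this length, occurred 2 times in Fgf4, at 214 and 188 bases before the start, and once each in Fgf5, Fgf10 and Fgf18. No other motif of the 6 occurred in the 6 windows of the FGF ligand genes. In all windows TATAAA occurred in 12.4%, the T-box motif in 1.12%, the ETS motif in 2.88%, the LEF/TCF motif in 3.21% and the nuclear receptor motif in 14.02%. Of the bases of the Fgf3 window 79.2% were C or T, and 0.0761% of all windows had at least that share, against a median of 50.0%. This feature was picked after the sequence had been read, and a match or its absence says only which letters stand in the window.

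Fgf4 and Fgf15 lie next to Fgf3 on mouse chromosome 7. Fgf15, the mouse counterpart of human FGF19 and known as a hormone from the gut that restrains bile acid synthesis, was also upregulated at 6 h. The DMSO cultures read 5.39 and 5.53, the WS1442 cultures 6.50, 6.41 and 6.59, and the MeOH eluate cultures 6.82, 6.91 and 6.67, so the 3 groups did not overlap. The log2 (fold change) was 1.04 ± 0.10 with WS1442 (2.05-fold, adjusted p = 0.000109) and 1.34 ± 0.10 with MeOH eluate (2.52-fold, adjusted p = 1.22e-06). At 24 h the levels lay closer to each other. There the DMSO cultures read 6.65 and 6.64, the WS1442 cultures 6.54, 6.55 and 6.44, and the MeOH eluate cultures 6.27, 6.36 and 6.33. The groups again did not overlap, but the differences were small, at -0.13 ± 0.10 with WS1442 (adjusted p = 0.391) and -0.32 ± 0.10 with MeOH eluate (adjusted p = 0.0427). The latter call was lost without either DMSO 24 h culture (adjusted p = 0.179 without replicate 1 and 0.113 without replicate 2), and without any of 6 treated cultures, all 3 MeOH eluate cultures of 24 h among them (adjusted p between 0.0528 and 0.115).

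Fgf4, the main autocrine FGF of embryonic stem cells, had the largest standard error of the 9 genes, 0.31 in each comparison with DMSO. At 6 h its DMSO cultures read 5.10 and 4.60, the WS1442 cultures 4.38, 4.28 and 4.73, and the MeOH eluate cultures 4.82, 4.69 and 4.35. After 24 h the DMSO cultures read 5.50 and 4.39, against 4.39, 4.01 and 4.69 with WS1442 and 4.39, 4.03 and 4.41 with MeOH eluate. The groups overlapped at both time points, and no comparison passed the test. The differences at 24 h were -0.58 with WS1442 (95% confidence interval -1.25 to 0.09, adjusted p = 0.199) and -0.67 with MeOH eluate (-1.34 to -0.00, adjusted p = 0.168). Without DMSO 24 h replicate 2 they were -1.14 (adjusted p = 0.0196) and -1.23 (adjusted p = 0.016), and without DMSO 24 h replicate 1 they were -0.03 and -0.11 and did not pass, so which vehicle culture is kept decides the call.

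Of 6 flanking genes that were listed, 5 were counted under their listed names. The other, LTO1 between Fgf15 and Ccnd1, was not in these counts and passed in no comparison with DMSO (lowest adjusted p = 0.0857). None of the 5 passed both upwards at 6 h and downwards at 24 h. The share of all genes that did was not computed, so nothing is read from this. At 6 h with WS1442 none rose and 2 fell, where 4.14% and 1.46% of all genes did, Ppfia1 by 0.46 (adjusted p = 0.0471) and the cell cycle gene Ccnd1 by 0.30 (adjusted p = 0.0119) on the log2 scale. With MeOH eluate at 6 h none of the 5 rose and 1 fell, where 8.67% and 8.39% of all genes did. This was Ccnd1, which fell by 0.74 (adjusted p = 1.6e-06). Tpcn2 beyond it fell as well (-0.42, adjusted p = 0.0222), but was not on the list and was looked at after its values were known. At 24 h Cttn, which codes for an actin-binding protein, rose with both treatments, by 0.23 (adjusted p = 0.0043) and 0.26 (adjusted p = 0.0025). There 12.9% of all genes rose with WS1442 and 9.64% with MeOH eluate. Ccnd1 fell with MeOH eluate at 24 h, by 0.29 (adjusted p = 0.00267), where 8.61% of all genes fell. The remaining listed genes did not pass the test at 24 h. Among these was Ano1, named after its values were seen, with -0.99 ± 0.42 for WS1442 (adjusted p = 0.0994) and -0.82 ± 0.42 for MeOH eluate (adjusted p = 0.209).

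Fgf8, Fgf17 and Fgf18 form 1 subfamily. Fgf8 at 6 h read 9.06 and 9.18 in the DMSO cultures, 8.89, 8.94 and 8.94 in the WS1442 cultures, and 8.54, 8.62 and 8.47 in the MeOH eluate cultures. These 3 groups did not overlap. Fgf8 was downregulated by MeOH eluate (-0.57 ± 0.07, 1.49-fold, adjusted p = 4.86e-05), while with WS1442 the difference of -0.20 ± 0.07 missed the threshold (adjusted p = 0.106). After 24 h the DMSO cultures read 8.98 and 9.04, against 8.83, 8.90 and 8.99 with WS1442 and 8.99, 8.96 and 9.03 with MeOH eluate, and the groups overlapped. The differences at 24 h were -0.10 with WS1442 (95% confidence interval -0.24 to 0.04) and -0.01 with MeOH eluate (-0.16 to 0.13), and neither passed the test (adjusted p = 0.305 and 0.946).

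Fgf17, expressed in the embryo in domains that overlap those of Fgf8, was downregulated at 6 h by both treatments. Its DMSO cultures read 7.75 and 7.82, the WS1442 cultures 7.29, 7.30 and 7.31, and the MeOH eluate cultures 7.19, 7.11 and 7.05, without overlap. The log2 (fold change) was -0.48 ± 0.09 with WS1442 (adjusted p = 0.00826) and -0.67 ± 0.09 with MeOH eluate (adjusted p = 0.000201). The call for WS1442 was lost without DMSO 6 h replicate 1 (adjusted p = 0.0705) and without replicate 2 (adjusted p = 0.0517). After 24 h the DMSO cultures read 7.03 and 7.07, just below the WS1442 cultures of 7.08 to 7.25, and the MeOH eluate cultures overlapped with both, with differences of 0.09 (adjusted p = 0.507) and 0.05 (adjusted p = 0.825).

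Fgf18, known for its part in bone and lung development, showed no change that passed the test. Its 16 cultures lay between 6.46 and 6.89. The intervals of its differences from DMSO at 6 h were -0.30 to 0.21 with WS1442 and -0.39 to 0.13 with MeOH eluate, and at 24 h -0.30 to 0.22 and -0.26 to 0.25.

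Fgf10 set the treatments apart. At 6 h the DMSO cultures read 10.60 and 10.74, the WS1442 cultures 10.48, 10.34 and 10.41, and the MeOH eluate cultures 9.30, 9.39 and 9.54. At 24 h the DMSO cultures read 11.80 and 11.75, the WS1442 cultures 11.66, 11.57 and 11.75, and the MeOH eluate cultures 10.72, 10.63 and 10.37. Each MeOH eluate culture lay below every other culture of its time point, whereas the WS1442 cultures lay just below DMSO at 6 h and overlapped with it at 24 h. MeOH eluate lowered Fgf10 by a log2 (fold change) of -1.26 ± 0.09 at 6 h (2.40-fold, adjusted p = 9.08e-07) and of -1.20 ± 0.09 at 24 h (2.30-fold, adjusted p = 8.13e-07). With WS1442 the values were -0.26 ± 0.09 (adjusted p = 0.128) and -0.11 ± 0.09 (adjusted p = 0.434). The other Fgf10 probe, for ENSMUST00000146674, was not well above background on any of the 16 arrays and gave no fold change.

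Fgf5 passed in no comparison with DMSO. Its 16 cultures lay between 9.40 and 10.02, and its largest difference from DMSO was -0.29 ± 0.12 with MeOH eluate at 6 h (adjusted p = 0.112). A dimmer Fgf5 probe, for NM_010203.5, did not pass either, the lowest adjusted p being 0.139. Fgf9, which supports proliferation of the developing heart muscle, read 7.52 and 7.71 in DMSO, 7.99, 7.58 and 7.74 with WS1442 and 8.25, 7.79 and 8.31 with MeOH eluate at 6 h. The MeOH eluate cultures lay above DMSO but the WS1442 cultures overlapped with both. The difference with MeOH eluate was 0.50 ± 0.16 (adjusted p = 0.0427), a call that was lost without either DMSO 6 h culture (adjusted p = 0.303 without replicate 1 and 0.0743 without replicate 2), under scaling to the 75th percentile in place of quantile normalisation (0.0541) and without the background filter (0.083). It was lost as well without MeOH eluate 6 h replicate 1 (0.122) or 3 (0.151), and without any of 4 treated cultures of 24 h (0.0503 to 0.0539). At 24 h Fgf9 differed from DMSO by 0.37 ± 0.16 with WS1442 (adjusted p = 0.107) and by 0.19 ± 0.16 with MeOH eluate (adjusted p = 0.505). A dimmer Fgf9 probe, for NM_013518.4, was well above background on 9 of the 16 arrays and passed in no comparison with DMSO (lowest adjusted p = 0.459).

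**Figure D2:**
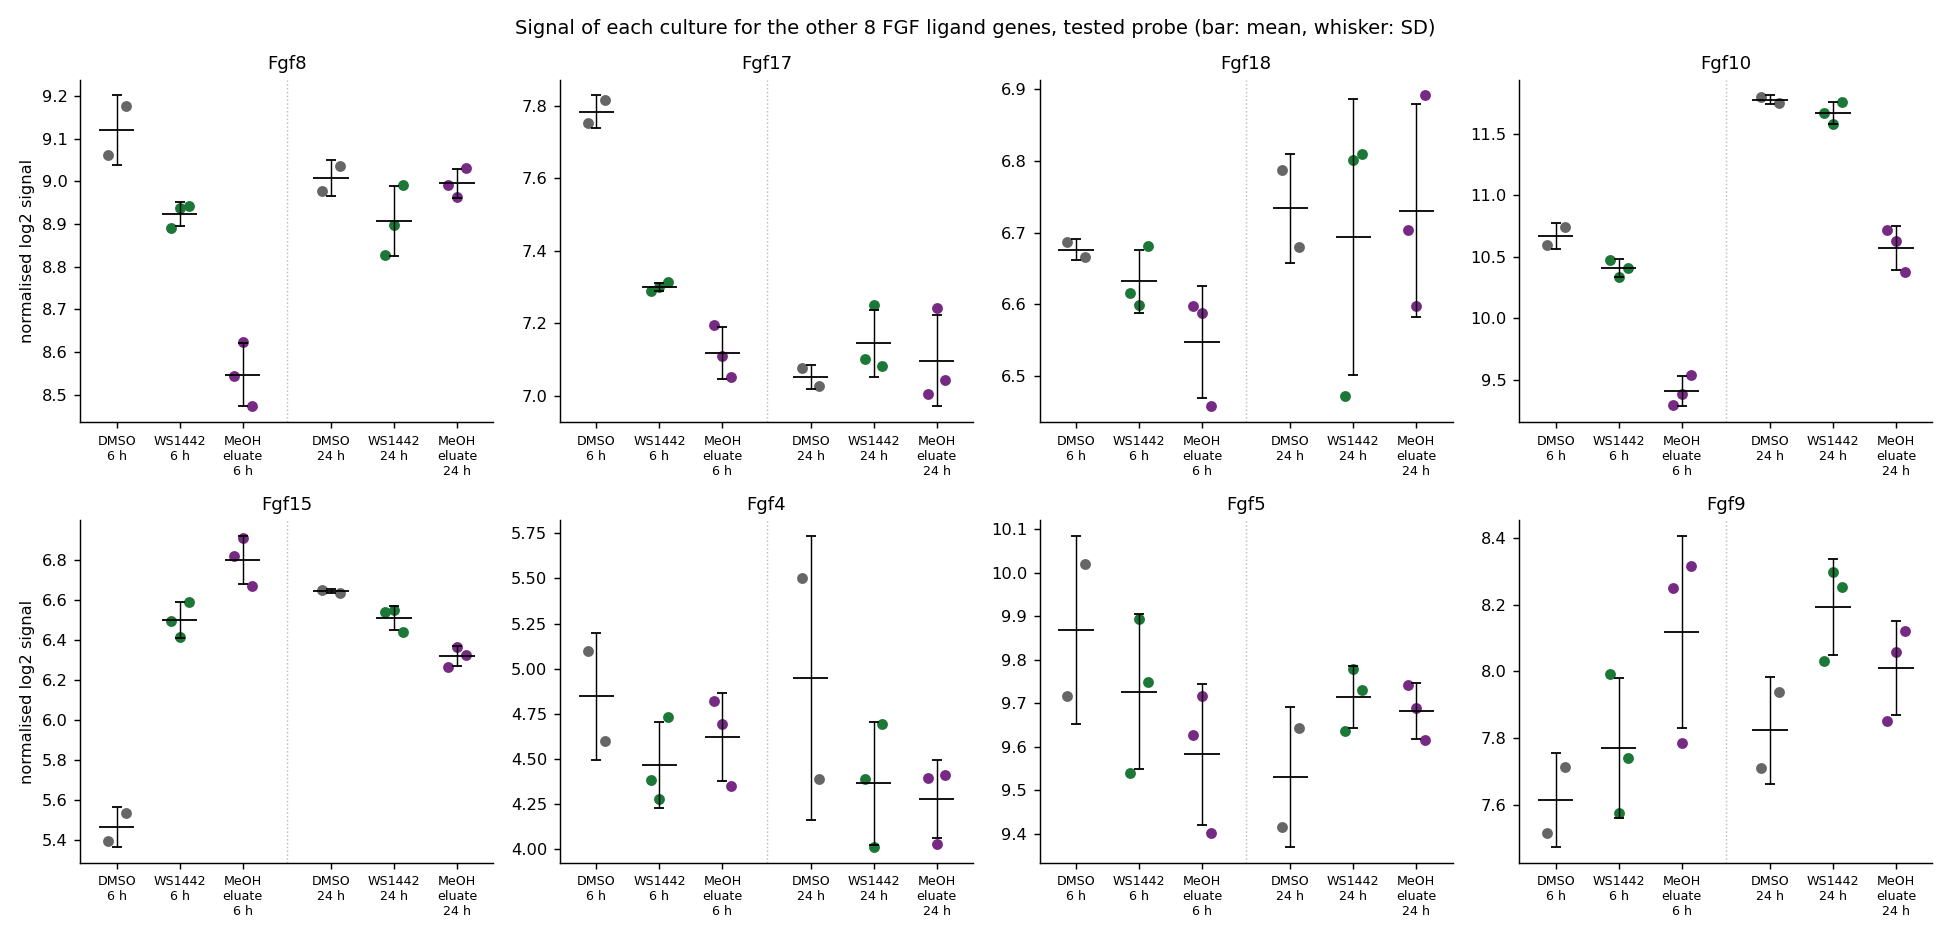
Normalised log2 signal (vertical axes, each with its own range) of the tested probe of Fgf8, Fgf17, Fgf18, Fgf10, Fgf15, Fgf4, Fgf5 and Fgf9 in each of the 16 cultures by group (horizontal axes). Points are cultures, bars are group means and whiskers are SD. Fgf10 was lowest in the MeOH eluate cultures of each time point, and Fgf15 was higher in all treated cultures than in DMSO at 6 h.

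Counted over the 9 genes, 3 passed an adjusted p of 0.05 with WS1442 at 6 h, where 5.6% of all genes passed, and 2 rose and 1 fell, where 4.14% and 1.46% of all genes did. With MeOH eluate at 6 h, 6 of the 9 passed, 3 in each direction, against 17.1% of all genes, 8.67% upwards and 8.39% downwards. At 24 h only Fgf3 passed with WS1442, 1 of 9 in a comparison in which 24.7% of all genes passed, 12.9% upwards and 11.9% downwards. With MeOH eluate at 24 h Fgf3, Fgf10 and Fgf15 passed, all downwards, against 18.2% of all genes, 9.64% upwards and 8.61% downwards. The share of members that passed at 24 h with WS1442, 11.1%, was thus below that of all genes, and the shares in the other 3 comparisons, 33.3%, 66.7% and 33.3%, were above it. The members were chosen with results of these data known, so the counts are a description. At the limits used by the study, more than 2-fold at an unadjusted p under 0.05, 1, 2, 1 and 2 of the 9 passed in the same order of comparisons, where 0.433%, 2.11%, 2.08% and 2.99% of all genes did. The median log2 (fold change) of the 9 genes was -0.14, -0.23, -0.10 and -0.01, against medians of all genes between -0.01 and 0.04.

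**Figure D3:**
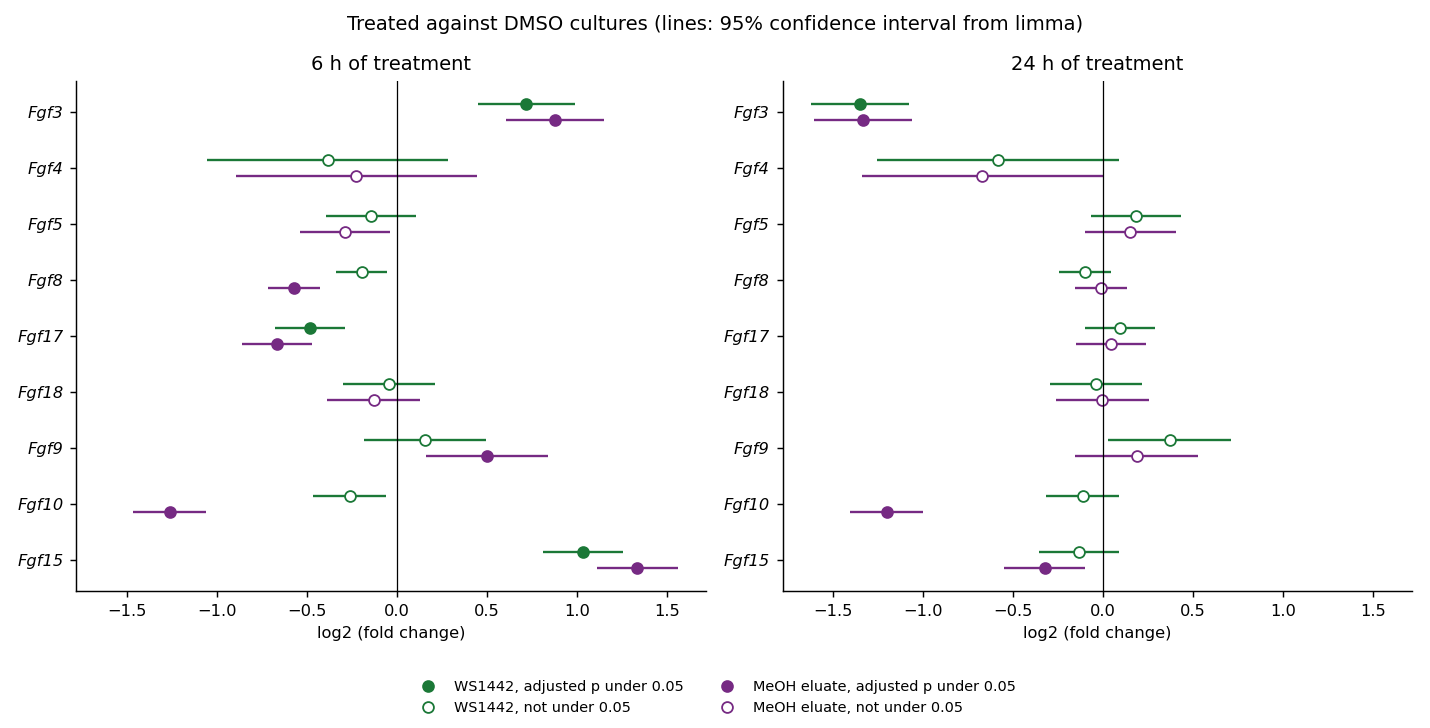
Log2 (fold change) against DMSO (horizontal axis) of the 9 FGF ligand genes (vertical axis) after 6 h and 24 h with WS1442 and MeOH eluate. Lines are 95% confidence intervals from limma, and filled points passed an adjusted p of 0.05. Fgf3 lay above 0 at 6 h and below 0 at 24 h with both treatments, and Fgf10 lay near -1.2 with MeOH eluate only.

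MeOH eluate and WS1442 were also compared with each other, although at doses that differ, 0.1 mg/ml of the eluate and 0.25 mg/ml of the extract. At 6 h, 3 of the 9 genes passed, where 12.1% of all genes did, 4.79% higher and 7.34% lower. Fgf10 was lower with MeOH eluate, with a log2 (fold change) of -0.998 ± 0.085 (adjusted p = 1.18e-05), Fgf8 differed by -0.38 ± 0.06 (adjusted p = 0.00166) and Fgf15 by 0.30 ± 0.09 (adjusted p = 0.0496). The call for Fgf15 was lost without any 1 of the 16 cultures (adjusted p between 0.0512 and 0.143), so it rests on the full set. At 24 h only Fgf10 passed, with -1.09 ± 0.08 (adjusted p = 9.68e-06), where 14.6% of all genes did, 7.45% higher and 7.18% lower. For Fgf3 the difference between the treatments was 0.16 at 6 h (95% confidence interval -0.08 to 0.40) and 0.02 at 24 h (-0.23 to 0.26). For Fgf17 it was -0.18 at 6 h (-0.36 to -0.01, adjusted p = 0.159) and -0.05 at 24 h (-0.22 to 0.13).

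The effect at 24 h was then set against that at 6 h in the same model. For Fgf3 this difference contains the fall at 24 h that prompted the choice of these genes. Its values and p-values, and the counts that include Fgf3, are therefore a description. With WS1442 the effect differed between the time points for 3 of the 9 genes, where 12.7% of all genes passed, 5.73% upwards and 6.95% downwards. These were Fgf3 (-2.07 ± 0.18, adjusted p = 5.22e-05), Fgf15 (-1.17 ± 0.15, adjusted p = 0.0007) and Fgf17 (0.58 ± 0.13, adjusted p = 0.0111). With MeOH eluate 4 of the 9 passed, where 7.8% of all genes did, 3.94% upwards and 3.86% downwards. Besides Fgf3 (-2.21 ± 0.18, adjusted p = 3.54e-06), Fgf15 (-1.66 ± 0.15, adjusted p = 7.63e-06) and Fgf17 (0.71 ± 0.13, adjusted p = 0.00297), the fourth was Fgf8 (0.56 ± 0.09, adjusted p = 0.00183). For Fgf10 the difference between the time points had an interval of -0.14 to 0.44 with WS1442 and of -0.23 to 0.35 with MeOH eluate.

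**Figure D4:**
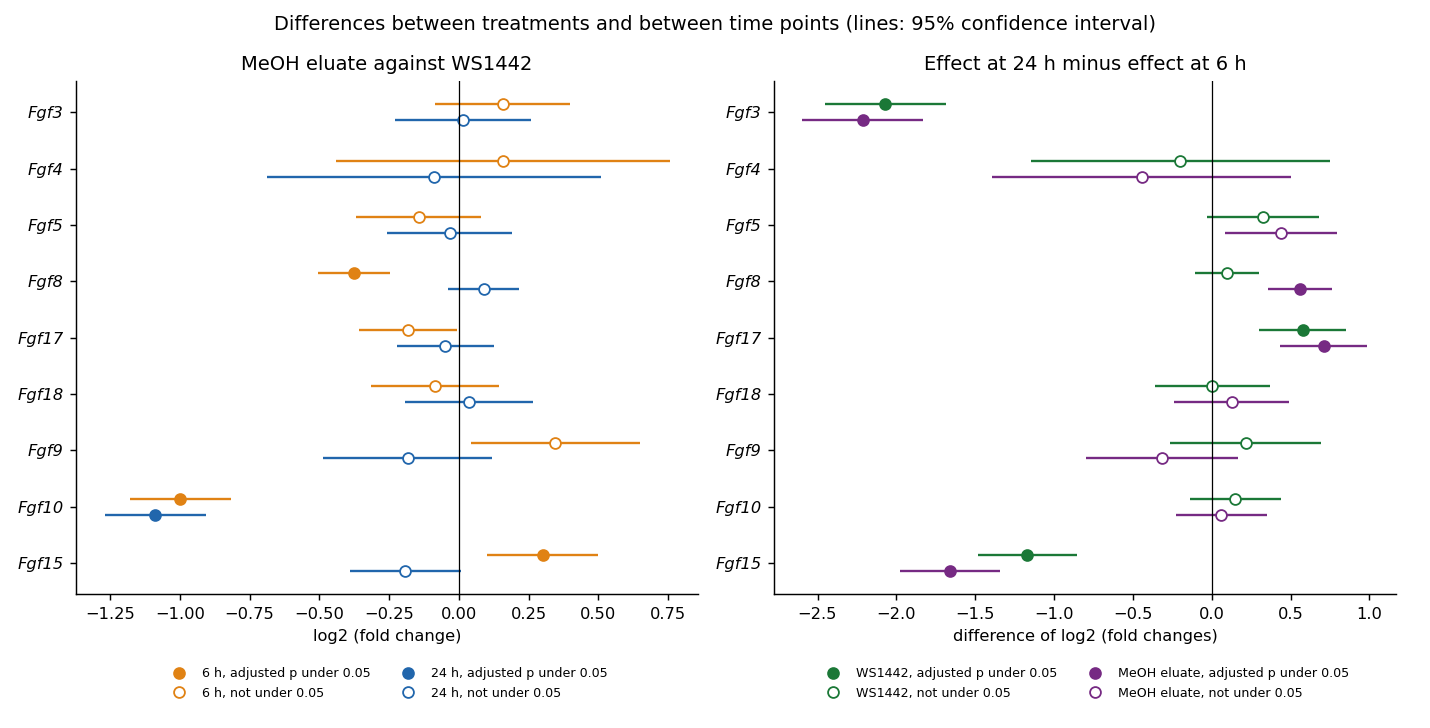
Difference between MeOH eluate and WS1442 at each time point (left, log2 fold change) and of the effect at 24 h minus that at 6 h for each treatment (right, difference of log2 fold changes) for the 9 FGF ligand genes. Lines are 95% confidence intervals and filled points passed an adjusted p of 0.05. Fgf10 lay near -1 on the left at both time points, and Fgf3 lay near -2 on the right with both treatments.

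In the DMSO cultures themselves, the mean log2 signal of Fgf10 was 10.67 at 6 h and 11.77 at 24 h. The difference of 24 h minus 6 h was 1.18 for Fgf15, -0.73 for Fgf17 and 0.68 for Fgf3. For Fgf4, Fgf5, Fgf8, Fgf9 and Fgf18 it lay between -0.34 and 0.21 on the tested probes, while the dimmer Fgf5 probe gave -1.21. Since slide and time point coincide, this was not tested.

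By Pearson correlation over the 16 samples, after the mean of each time point had been removed, the named genes most like Fgf3 were L1cam (0.96), Egfl7 (0.95), Ydjc (0.95), Ier5 (0.95) and Rlf (0.94). Among the other FGF ligand genes Fgf15 came closest, with 0.65, followed by Fgf4 with 0.33. The remaining 6 lay between -0.54 for Fgf17 and 0.06 for Fgf10. The samples share group, slide and vehicle cultures, and these values are descriptions without a test.

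Counts over the lists of other genes are to be read against the shares of all genes that passed. At 6 h 4.14% rose and 1.46% fell with WS1442, and 8.67% rose and 8.39% fell with MeOH eluate. At 24 h 12.9% rose and 11.9% fell with WS1442, and 9.64% rose and 8.61% fell with MeOH eluate. Of 13 other FGF genes 10 could be tested, and only Fgf6 passed in a comparison with DMSO, at 24 h with WS1442 (0.36, adjusted p = 0.0437), where 24.7% of all genes passed. Of 7 receptors and coreceptors 5 were tested. The receptor gene Fgfr2 rose at 6 h with both treatments, by 0.68 (adjusted p = 0.00236) and 0.96 (adjusted p = 1.84e-05), while Fgfrl1, a receptor without a kinase domain, fell by 0.27 (adjusted p = 0.023) and by 0.39 (adjusted p = 0.000756), and Fgfr3 fell by 0.31 with MeOH eluate (adjusted p = 0.0478). At 24 h with WS1442 Fgfr3 fell by 0.48 (adjusted p = 0.00282), and with MeOH eluate Fgfrl1 fell by 0.26 (adjusted p = 0.00935) and Fgfr1 rose by 0.32 (adjusted p = 0.00125). Fgfr4 was also called lower with MeOH eluate at 24 h (adjusted p = 0.0268), but it was well above background on 1 of the 2 DMSO arrays and on none of the 3 MeOH eluate arrays, so no fold is given.

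Among 17 genes of intracellular FGF signal transduction, 1 rose and 1 fell with MeOH eluate at 6 h, where 17.1% of all genes passed, and none passed with WS1442, where 5.6% did. After 24 h, 2 rose and 4 fell with WS1442, where 24.7% of all genes passed, and 4 rose and 3 fell with MeOH eluate, where 18.2% did. Among 20 genes that bind FGF outside the cell or build heparan sulfate, 3 rose and none fell at 6 h with WS1442, where 4.14% and 1.46% of all genes did, and 3 rose and 2 fell with MeOH eluate, where 8.67% and 8.39% did. The latter were led by the heparan sulfate 6-O-sulfotransferase gene Hs6st2, which fell by 1.05 (adjusted p = 0.000679), and the syndecan gene Sdc4, which rose by 0.91 (adjusted p = 6.51e-07). At 24 h, 2 rose and 5 fell with WS1442, where 12.9% and 11.9% of all genes did, and 4 rose and 4 fell with MeOH eluate, where 9.64% and 8.61% did.

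The 12 feedback inhibitors and transcriptional targets of FGF signalling fell more often than they rose at 6 h. With WS1442, 4 fell and none rose, where 1.46% of all genes fell, and with MeOH eluate 7 fell and none rose, where 8.39% fell. With MeOH eluate the largest falls were those of Dusp6, a phosphatase that inactivates ERK (-1.15, adjusted p = 3.73e-08), of the ETS factor genes Etv1 (-0.93, adjusted p = 0.000159) and Etv5 (-0.85, adjusted p = 5.39e-07), and of the inhibitor gene Spry4 (-0.75, adjusted p = 8.31e-05). At 24 h, 5 of the 12 rose and 3 fell with WS1442, where 12.9% and 11.9% of all genes did, and 1 rose and 6 fell with MeOH eluate, where 8.61% of all genes fell. With MeOH eluate at 24 h Etv4 fell by 0.72 (adjusted p = 1.28e-06), Spry4 by 0.67 (adjusted p = 0.00014) and Dusp6 by 0.56 (adjusted p = 2.02e-05). The list median was -0.22, -0.43, 0.19 and -0.20 in the order WS1442 and MeOH eluate at 6 h, then both at 24 h.

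Markers of primitive streak and early mesoderm, where Fgf8, Fgf17 and Fgf3 are known to be expressed in the embryo, moved with the groups as well. At 6 h, 5 of the 10 fell with WS1442, where 1.46% of all genes fell, and 7 fell and 1 rose with MeOH eluate, where 8.39% fell and 8.67% rose. At 24 h, 4 fell with WS1442 and 7 with MeOH eluate, where 11.9% and 8.61% fell. Their summed linear signal at 6 h lay between 17489.6 and 18005.9 in DMSO, between 11762.7 and 12233.1 with WS1442 and between 7270.0 and 7763.7 with MeOH eluate. At 24 h it lay between 15414.5 and 15485.4, between 12357.5 and 13702.7, and between 9237.2 and 10135.5. Wnt3 was the brightest of the 10 in DMSO at 6 h, with a mean log2 signal of 13.14, and Gsc came next with 11.95. These genes weigh most in the sum, which is not an even reading of the list. None of the 10 was below background throughout, and the largest falls were those of Gsc (-2.66, adjusted p = 5.63e-09) and Mixl1 (-2.39, adjusted p = 2.58e-11) with MeOH eluate at 6 h. Their part in the falls of Fgf8, Fgf10 and Fgf17 was not tested.

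Endoderm markers fell in 1 of 6 tested genes with WS1442 and in 4 of 6 with MeOH eluate at 6 h, and in 3 of 6 with each at 24 h, when Afp rose with WS1442. Of all genes 1.46% and 8.39% fell at 6 h, and 11.9% and 8.61% at 24 h. Ttr never stood well above background. Neuroectoderm markers rose in 3 of 5 with WS1442 and 2 of 5 with MeOH eluate at 24 h, where 12.9% and 9.64% of all genes rose, and Pax3 never stood well above background. At 6 h 1 of the 5 rose and 1 fell with MeOH eluate, and none passed with WS1442. Their summed signal is mostly that of Nes, an intermediate filament gene of neural progenitors, which made up between 90.8% and 94.7% of it. The sum at 6 h lay between 4168.0 and 4185.2 in DMSO, between 4120.9 and 4417.8 with WS1442 and between 4946.5 and 5673.7 with MeOH eluate. At 24 h it lay between 2722.2 and 2744.8, between 4294.9 and 4821.2, and between 3536.2 and 4278.8. Pluripotency markers fell in 2 of 7 with MeOH eluate at 6 h and in 2 of 7 with WS1442 at 24 h, and no gene of that list passed in the other 2 comparisons, while 8.39% of all genes fell in the former and 11.9% in the latter.

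Of 6 cardiac progenitor, 6 cardiomyocyte, 5 endothelial and 5 primitive blood genes tested, between 0 and 2 of each list passed in each comparison with DMSO, where between 5.6% and 24.7% of all genes passed. Of the 6 cardiac progenitor genes 2 rose with MeOH eluate at 6 h, where 8.67% of all genes rose, and none passed with WS1442. At 24 h 2 fell with MeOH eluate, where 8.61% did, and 1 rose and 1 fell with WS1442, where 12.9% and 11.9% did. Their summed signal at 24 h lay between 769.7 and 784.7 in DMSO. It lay between 851.9 and 893.8 with WS1442 and between 648.5 and 718.1 with MeOH eluate, without overlap. At 6 h only the MeOH eluate sums lay apart from DMSO. Myl7, which codes for the atrial myosin light chain, passed in all 4 comparisons with DMSO and in the directions of Fgf3. It rose at 6 h by 0.61 with WS1442 (adjusted p = 0.0386) and by 1.05 with MeOH eluate (adjusted p = 0.000499), and it fell at 24 h with log2 (fold changes) of -1.17 (adjusted p = 0.000156) and -2.02 (adjusted p = 8.4e-07). Only Myl7 of the 6 cardiomyocyte genes passed at 6 h, where 4.14% of all genes rose with WS1442 and 8.67% with MeOH eluate. The median log2 (fold change) of that list at 6 h was -0.11 with WS1442 and -0.03 with MeOH eluate, opposite in sign to Myl7. Tal1, a transcription factor gene of early blood cells, fell at 24 h with log2 (fold changes) of -1.19 for WS1442 (adjusted p = 0.000158) and -1.89 for MeOH eluate (adjusted p = 2.1e-06). No endothelial or primitive blood gene passed at 6 h. Of the 5 endothelial genes 1 fell with MeOH eluate at 24 h, where 8.61% of all genes fell, and none passed with WS1442. Of the 5 primitive blood genes 1 fell with each treatment at 24 h, where 11.9% and 8.61% of all genes fell. Another of the 5 rose with MeOH eluate at 24 h, where 9.64% of all genes rose. The largest rise in mean log2 signal there was that of Hbb-bh1, from 4.11 in DMSO to 5.55. Only 1 of the 2 DMSO arrays had Hbb-bh1 well above background. Cdh5, which codes for the cadherin of endothelial junctions, was at least 2.06-fold lower with MeOH eluate at 24 h (adjusted p = 0.00133), where none of the 3 arrays had it well above background. The summed signal of the cardiomyocyte list at 6 h lay between 21491.6 and 23834.9 in DMSO. Both treated groups lay below it, between 17904.2 and 20572.8 with WS1442 and between 18240.1 and 20225.2 with MeOH eluate. At 24 h the sum lay between 14561.7 and 14762.7 in DMSO. It lay between 12812.2 and 15673.7 with WS1442 and between 13029.1 and 14748.0 with MeOH eluate, so its groups overlapped. This sum is mostly that of Actc1, named after its values were seen, with a mean log2 signal of 13.72 in DMSO at 24 h. Myl7, the next brightest of the list there, had 9.51. Of the 6 genes 2 fell with each treatment at 24 h, where 11.9% and 8.61% of all genes fell. For the primitive blood list at 24 h the summed signal lay between 528.3 and 545.0 in DMSO. With WS1442 it lay between 331.7 and 342.8, and with MeOH eluate between 261.7 and 339.0. Tal1 was the brightest gene of that list in DMSO at 24 h, with a mean log2 signal of 8.11. The part of these cell types in the Fgf3 values was not tested.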

How the data were processed

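Cy3-labelled RNA was measured on 1-colour Agilent ArrayXS arrays. The authors deposited Feature Extraction scanner files with background-corrected intensities and a table of quantile normalized linear intensities. The members and gene lists were chosen with earlier results of these data known. Non-uniform spots were set missing and spots of a probe averaged. Log2 intensities were quantile normalized over 16 arrays, and differed from the deposited intensity table by at most 0.0329 (log2) for the member probes. Probes were kept where any group had all its arrays well above background (36729), named by RefSeq accession or symbol (42262 of 60273 probes with 1 symbol), and represented by the brightest per gene. All 6 group means were fitted with limma 3.58.1 in R 4.3.3 (eBayes with trend). A call is a Benjamini-Hochberg adjusted p under 0.05 over the genes tested (29299 to 29308 per comparison). Figures were drawn in Python 3.11.15. The fit was tested on simulated data. Student's t-test, scalings, filters, blocks and left-out replicates were alternatives. The paper names that test for its pairwise comparisons in general, but names no test for the array values. No counts stand behind array signals, so the number of arrays limits the precision. By the naming rule, members appear always, and other list genes only if called, at most 4 per list and comparison.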

Additional observations from a re-analysis of the deposited data

Results flagged for a closer look

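The effect of a treatment relative to DMSO differed between 24 h and 6 h, by limma's test of that difference, for the following genes. Fgf3 differed by -2.07 (log2) for WS1442 and -2.21 for MeOH eluate, and rose at 6 h but fell at 24 h. That fall prompted the choice of these genes, so the Fgf3 differences are a description. Fgf15 differed by -1.17 and -1.66, having risen at 6 h with both. Fgf17 differed by 0.58 and 0.71, having fallen at 6 h with both. Fgf8 differed with MeOH eluate, by 0.56. For WS1442 and Fgf8 the difference was 0.09 with a 95% confidence interval of -0.11 to 0.30. Each time point has its own DMSO cultures and its own slide. The mean log2 signal of Fgf15 at 6 h and 24 h was 5.46 and 6.64 in DMSO. It was 6.50 and 6.51 with WS1442, and 6.80 and 6.32 with MeOH eluate. For Fgf17 the means were 7.78 and 7.05 in DMSO, 7.30 and 7.14 with WS1442, and 7.12 and 7.10 with MeOH eluate. These changes of level between the time points were not tested.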

How the results depend on the processing

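Over 9 alternatives other than left-out replicates, 582 of 612 single gene values stayed on their side of the threshold. Of the rest, 29 lost their call (16 of them under Student's t-test) and 1 gained one. Over 16 left-out replicates 1114 of 1152 stayed, 35 lost and 3 gained a call. Of all these values 35 changed sign, and 0 of them were called. Leaving out 1 replicate in turn gave 1 to 3 called members for WS1442 and 5 to 6 for MeOH eluate at 6 h, 1 to 2 and 2 to 3 at 24 h, 2 to 3 and 1 for MeOH eluate against WS1442 at 6 h and 24 h, and 3 and 4 for the effect at 24 h minus 6 h. A DMSO group is then 1 culture, assumed to vary like the others. Student's t-test with Benjamini-Hochberg adjustment called 0 members at 6 h with each treatment. At 24 h it called 1 (Fgf3) with WS1442 and 0 with MeOH eluate, and it called 0 in both comparisons of the treatments. With this test 1, 2, 1, 2, 0 and 1 members passed at the study's limits of fold and unadjusted p. A fit within the time point called 2 members for WS1442 at 24 h, adding Fgf9 (adjusted p = 0.0414). With a replicate block 3, 5, 1, 2, 2, 1, 3 and 4 members were called, so Fgf9 lost its call with MeOH eluate at 6 h, and Fgf15 lost those with MeOH eluate at 24 h and between the treatments at 6 h. The slide row as a block ended the same 3 calls (adjusted p = 0.0669, 0.0663 and 0.074). Same-numbered samples deviated from their group means with correlations between -0.23 and 0.31. With 2 or 3 cultures per group, and no differently numbered samples compared, these values cannot show whether the numbers pair the samples. Of all genes, the t-test called 1, 8, 103, 322, 70 and 212, against 1641, 4996, 7253, 5348, 3555 and 4286. The block called 554 with WS1442 at 6 h, and 1969 and 1422 for the differences between time points, against 3715 and 2285. The slide row as a block called 2201 and the fit within the time point 1602 for the treatments at 6 h, and the latter 481 for WS1442 at 6 h. Left-out replicates gave 231 to 2207 for WS1442 and 1985 to 5521 for MeOH eluate at 6 h, 3838 to 7440 and 3340 to 5490 at 24 h, 1420 to 4664 and 2030 to 4496 between the treatments, and 1478 to 4324 and 1330 to 2541 between time points. The causes were not tested. Fgf4 and the dim probes of Fgf3 and Fgf9 lay nearest to the background, which limits what they can show.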
